A study of Mus musculus with 4 samples.

Results

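Ribosomal protein genes encode the proteins of the cytosolic ribosome, and they are described here as a housekeeping baseline for open chromatin in palatal mesenchyme. Members were the protein-coding genes whose symbols follow the Rpl, Rps, Rplp and Rpsa pattern, in the RefSeq gene table of assembly GRCm38.p6 (mm10). The rule found 84 of 21631 protein-coding genes on chromosomes 1 to 19 and X, with 52 in the large and 32 in the small subunit. The rule uses symbols alone and no measured value, although it was chosen with earlier results of these data known. Chromatin accessibility was measured by ATAC-seq, which uses Tn5 transposase to tag DNA that nucleosomes leave exposed. The cells were palatal mesenchyme of mouse embryos at E14.5, sorted for the green fluorescence that the R26RmTmG reporter gives where Cre has acted, with 50000 cells pooled for each group. The controls (2 libraries, titled WT) were Shox2Cre/+;Nkx2.5F/F;R26RmTmG and the mutants (2 libraries, titled MT) were Shox2Cre/-;Nkx2.5F/F;R26RmTmG. The series set out to compare the Shox2 lineage with and without Shox2, a homeobox factor of the anterior palate. Every library was therefore homozygous for the floxed Nkx2.5 allele and carried Cre at Shox2, so neither group was wild type. The sources used here do not say whether the libraries of a genotype came from separate pools of embryos, so the spread between them may be technical.

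As background, each ribosome joins a small subunit, which reads the mRNA, to a large subunit, which forms peptide bonds. Nearly all of its proteins are needed in every growing cell, and their mRNAs are among the most abundant. Vertebrate ribosomal protein promoters usually lack a TATA box and start transcription at a C within a run of pyrimidines, the origin of the 5′ terminal oligopyrimidine tract that lets mTOR signalling set their translation. Inherited loss of 1 copy of several of these genes causes Diamond-Blackfan anaemia, in which cleft palate and other craniofacial changes occur.

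The promoter table (RefSeq, GRCm38.p6) listed a start for 64 of the 84 members, in 76 entries of 300 bases. The stretches below, written 5′ to 3′ on the gene's strand, run from 60 bases before the annotated start to base 20 from it. They show the strongest promoters of the set (Rpl37, Rps21, Rpl22l1 and Rpl15), weak ones (Rpl18, Rpl4 and Rpl19), Rps19 of Diamond-Blackfan anaemia, and 3 members without any peak (Rpl10l, Rpl39l and Rpl32l). Capitals mark the longest run of at least 5 pyrimidines that touches the 5 bases on either side of the start.
Rpl37, chr15:5116553-5116632, plus strand: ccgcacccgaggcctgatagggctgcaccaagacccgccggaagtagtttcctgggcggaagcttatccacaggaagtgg
Rps21, chr2:180257319-180257398, plus strand: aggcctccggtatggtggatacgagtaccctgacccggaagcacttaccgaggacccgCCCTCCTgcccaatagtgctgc
Rpl22l1, chr3:28805448-28805527, plus strand: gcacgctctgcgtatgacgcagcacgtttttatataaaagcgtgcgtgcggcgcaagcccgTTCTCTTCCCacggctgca
Rpl15, chr14:18270967-18271046, minus strand: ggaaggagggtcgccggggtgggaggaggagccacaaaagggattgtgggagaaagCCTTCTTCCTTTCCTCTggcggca
Rpl18, chr7:45718011-45718090, plus strand: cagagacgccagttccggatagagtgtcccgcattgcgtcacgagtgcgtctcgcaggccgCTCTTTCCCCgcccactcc
Rpl4, chr9:64173327-64173406, plus strand: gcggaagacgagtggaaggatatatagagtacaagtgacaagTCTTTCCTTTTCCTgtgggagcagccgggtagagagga
Rpl19, chr11:98026650-98026729, plus strand: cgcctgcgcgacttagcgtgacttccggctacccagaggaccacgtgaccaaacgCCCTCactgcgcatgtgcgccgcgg
Rps19, chr7:24884532-24884611, plus strand: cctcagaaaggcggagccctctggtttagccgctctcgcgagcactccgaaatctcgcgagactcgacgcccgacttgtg
Rpl10l, chr12:66284382-66284461, minus strand: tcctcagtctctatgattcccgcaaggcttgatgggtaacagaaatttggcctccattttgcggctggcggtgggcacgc
Rpl39l, chr16:10170168-10170247, plus strand: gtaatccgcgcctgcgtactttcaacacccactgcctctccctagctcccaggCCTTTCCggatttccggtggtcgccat
Rpl32l, chr10:20208379-20208458, plus strand: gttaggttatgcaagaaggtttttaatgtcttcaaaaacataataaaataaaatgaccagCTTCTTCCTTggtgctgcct

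The letters around member starts differed in several ways from those of all 17274 protein-coding genes in the promoter table. The word TCT with its C on the start base, searched on the sense strand, was found in 8 of 64 members (12.5%), against 1.62% of all genes. The 8 were Rpl14, Rpl15, Rpl27, Rpl28, Rpl38, Rps15a, Rps18 and Rps28. A pyrimidine run of 8 or more bases within 5 bases of the start was found in 39.1% of members and 11.6% of all genes. CCGGAAG, the core of ETS factor sites, lay in 26 members (40.6%) on either strand, against 13.1% of all genes; Rpl37 and Rps21 above carry it. The palindrome known for ZBTB33 binding, which spans the start in the Rps19 line, lay on either strand in 6 members (9.38%) and 0.764% of all genes, and the 6 were Rpl10a, Rpl12, Rpl26, Rps19, Rps28 and Rps6. AAGATGGC, which resembles YY1 sites, lay in 9.38% of members and 3.59% of all genes. GGGCGG, an SP1-type word, was common in both, at 60.9% and 49.8%. CACGTG, the E-box of MYC and USF factors, lay in 9.38% and 9.02%, and the NRF1 palindrome in 3.12% and 1.49%. TATAAA on the sense strand lay anywhere in the 300 bases of 7 members (10.9%) and of 9.87% of all genes. Rpl22l1 was the 1 member with it 20 to 40 bases before the start (1.56%, against 3.1% of all genes). The median GC content was 56.8% in members and 56.7% in all genes. These are matches of letters to single annotated starts, and a match is neither a binding site nor a measured start.

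Nearly all ribosomal protein promoters were open in every library. A promoter peak is the strongest deposited peak, by its score, within 1 kb of an annotated start; for the 20 members without a listed start, and for other such genes, either end of the gene was used. Of the 84 members, control 1 held such a peak for 79, control 2 for 77, mutant 1 for 78 and mutant 2 for 79. All 4 libraries held one for 77 members (91.7%), against a background of 54% of all protein-coding genes. The share of members with a promoter peak averaged 92.9% in controls and 93.5% in mutants, a difference of 0.595 percentage points (exact two-sided permutation p = 1 over the 4 libraries; the lowest p possible is 0.33). Bases were covered as fully as genes. Peaks overlapped on average 92.0% to 93.7% of the 300 bases of the 64 members with a listed start, and 54.2% to 57.1% over all genes with one.

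The 5 members without a promoter peak in any library were all of the large subunit. Rpl10l is a testis paralogue of the X-linked Rpl10, Rpl39l a testis paralogue of Rpl39, and Rpl3l a paralogue of Rpl3 made in striated muscle. Rpl32l is an Rpl32-like gene. Among the printed starts of these members, Rpl39l and Rpl32l have pyrimidine runs of 7 and 10 bases, and Rpl10l has no run of 5 or more. Of the printed starts open in every library, Rps21, Rpl22l1, Rpl15, Rpl18 and Rpl4 have runs of 7 to 17 bases. Rpl37 and Rps19, also open, have no run of 5 or more. Whether such runs go with open promoters was not tested. The fifth member without a promoter peak, Rpl17, differs from the others without one. A region at chr18:75000019-75001024 lay inside the gene in all 4 libraries, at percentiles of 65.7, 63.4, 70.4 and 77.1. It began 1041 bp from the nearer annotated gene end and so fell just outside the window. Percentiles here place a peak by deposited score within its own library's list, with 100 for the strongest.

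Paralogues were not all closed. Rpl22l1, the paralogue of Rpl22, stood among the strongest members, at percentiles of 97.9 and 94.6 (controls) and 97.0 and 97.6 (mutants). Rps27l, a p53-responsive paralogue of Rps27, was at 72.1, 65.8, 69.5 and 76.3 in the same order. Rpl7l1, a nucleolar relative of Rpl7, was at 58.6, 67.1, 48.4 and 57.0. Of the 6 paralogues that the gene table held of 7 listed, 3 were thus open in every library and 3 in none. The 3 in none were Rpl10l, Rpl39l and Rpl3l, the testis and striated muscle paralogues.

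Rpl19, which encodes a large subunit protein, had a promoter peak in control 1 (percentile 33.9) and mutant 2 (27.2) and in neither of the other libraries. Its region at chr11:98026438-98027421 spans the start printed above. The libraries with the peak were thus 1 of each genotype.

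**Figure D1:**
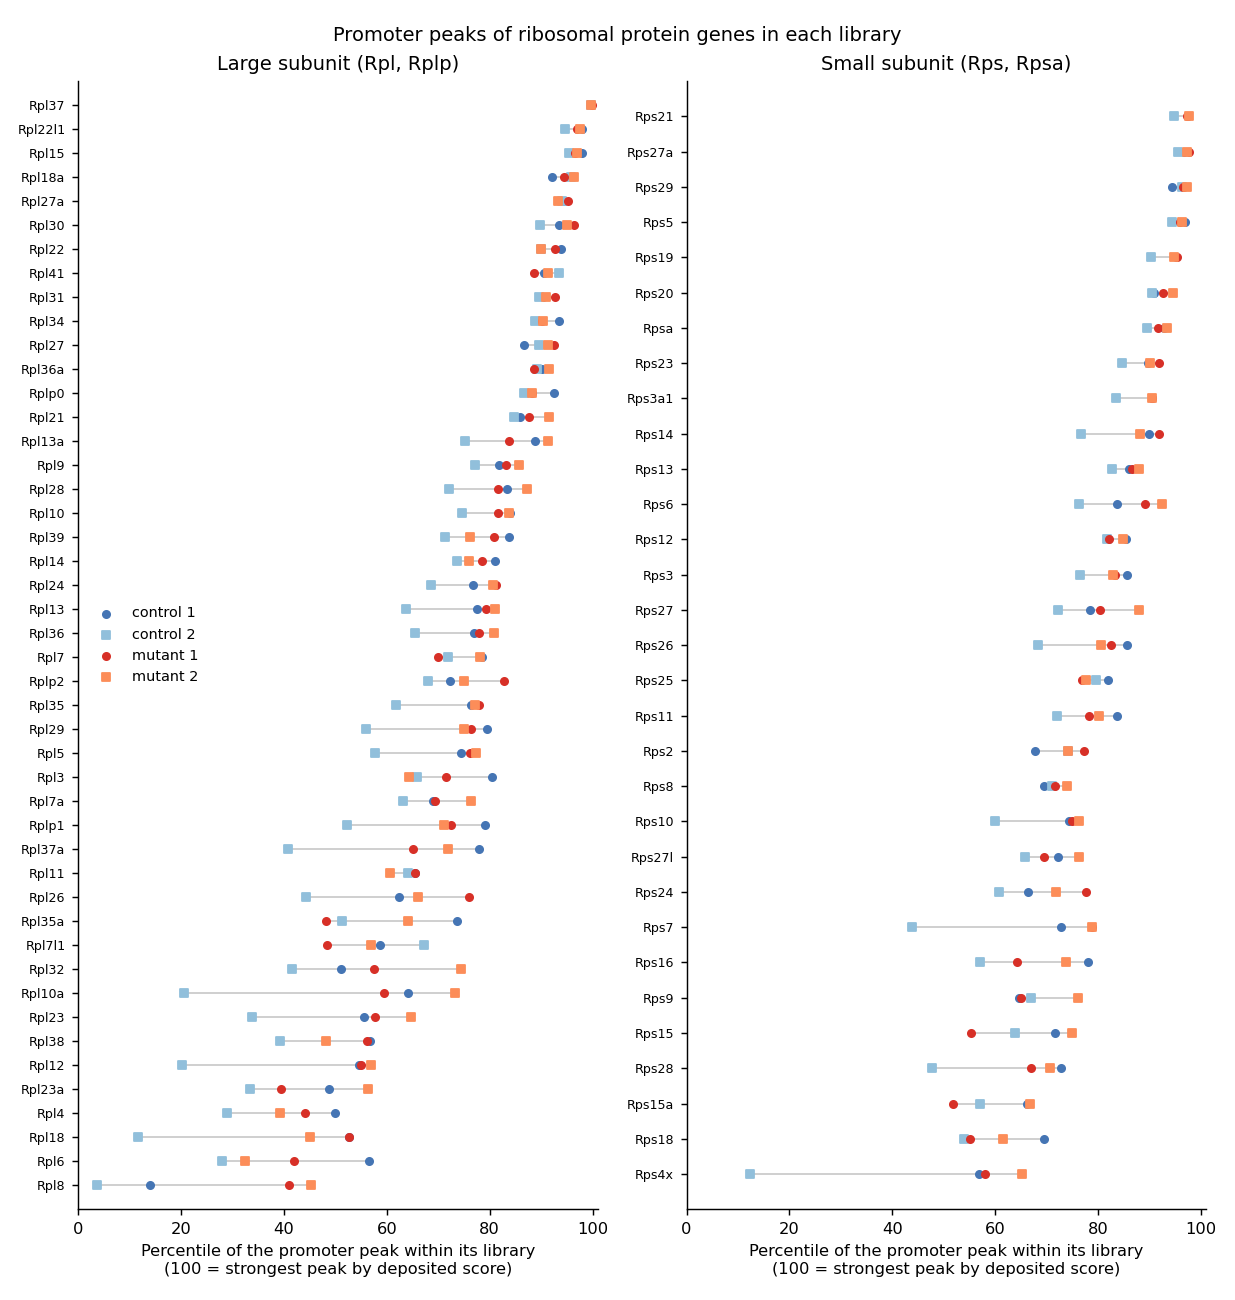
Percentile of the promoter peak within its library (x axis, 100 = strongest by deposited score) for each of the 77 members with a promoter peak in every library, large subunit at left and small subunit at right, ordered by their mean. Each point is 1 library and the grey line spans the libraries. Control 2, in light blue, was the lowest library for 58 of the 77 members.

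Although the promoters were almost always open, their ranks were close to those of other open promoters. The median percentile of member promoter peaks was 79.1 for control 1, 71.3 for control 2, 78.7 for mutant 1 and 78.1 for mutant 2. The medians over all genes with a promoter peak were 77.8, 72.7, 77.1 and 78.4 in the same order. A promoter peak in the top 10% of the list in all 4 libraries was found for 11 of 77 members (14.3%), against 19.1% of all genes with a promoter peak in each library. In each single library the top 10% held 25.3% of member peaks in control 1, 25.6% in mutant 1 and 29.1% in mutant 2, against 24.7%, 24.2% and 25.7% over all genes. In control 2 it held 16.9%, against 20.1%. Weak promoter peaks made up a smaller share of member peaks in all 4 libraries. Percentiles below 50 held 5.06% of member peaks in control 1, 8.97% in mutant 1 and 8.86% in mutant 2, against 16.7%, 17.1% and 16.4% over all genes. In control 2 the shares were 19.5% and 23.1%.

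Peaks of members were narrower than those of other promoters. Their median width was 1006 and 972 bp (controls) and 1007 and 1035 bp (mutants). Over all genes the medians were 1118 and 1104 bp (controls) and 1112 and 1128 bp (mutants), above the members' median in each library. A mean width of 1500 bp or more was found for 1 of 77 members (1.30%), against 14.3% of all genes. That member was Rpl7, with widths of 2186 and 2075 bp (controls) and 2466 and 2245 bp (mutants). The region at chr1:16103990-16106478 that holds this peak was nearest to Rdh10, a retinol dehydrogenase gene, and was assigned to it. The next widest were Rpl9 (mean 1386 bp), whose start lies 66 bp from that of Lias, then Rpl10 (1367 bp), Rps29 (1303 bp) and Rpl37a (1297 bp). Between genotypes the members' median width differed by 32 bp, from a mean of 989 bp in controls to 1021 bp in mutants (exact permutation p = 0.33, as small as 2 against 2 libraries can give). Without the listed paralogues the difference was 15.25 bp. Taken gene by gene, the median difference of mutant minus control was only 3.5 bp over the 77 members, against 10 bp over all 11683 genes. Control 1 and mutant 1 were nearly equal, at 1006 and 1007 bp.

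**Figure D2:**
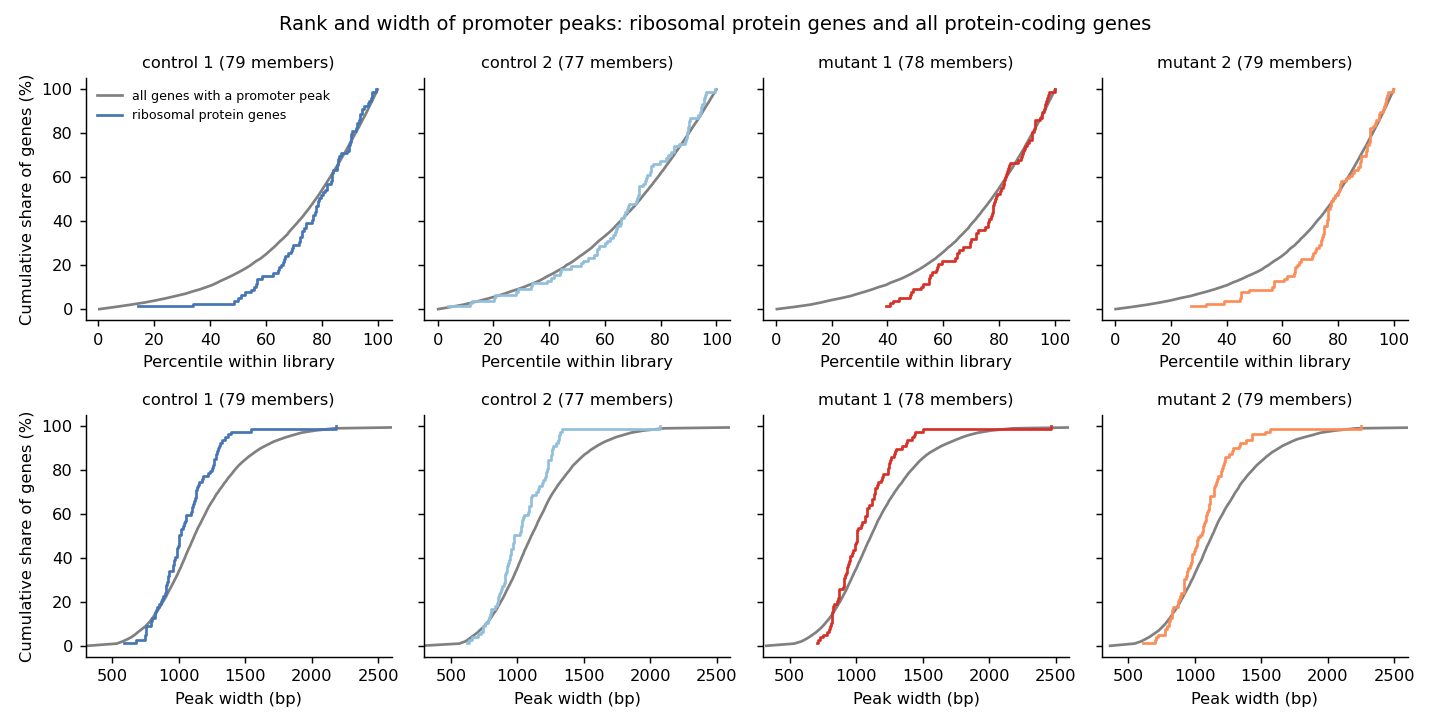
Cumulative share of genes (y axis, %) by percentile of the promoter peak (upper row) and by its width in bp (lower row) in each library, for ribosomal protein genes (colour) and for all protein-coding genes with a promoter peak (grey). The percentile curves meet near the medians of 71.3 to 79.1, while the member width curves lie to the left, with medians of 972 to 1035 bp against 1104 to 1128 bp.

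The summits of the peaks sat at the starts. For members with a listed start and a peak, the median summit was at -15 and -37 bp (controls) and -24 and -25.5 bp (mutants), where negative positions lie before the start. Over all genes the medians ran from -9 to -11 bp. A summit within 150 bp of the start was found for 71.2% to 76.3% of members and 65.7% to 68.5% of all genes, by library. In 33 of 59 members all 4 libraries placed it within that distance. Rpsa, which encodes a small subunit protein also known as the laminin receptor, was among the most regular, with summits at -111, -107, -112 and -111 bp. In Rps25 the summits lay at -536, -561, -568 and -519 bp, and in Rpl4 at -516, -305, -483 and -480 bp. Those regions were nearest to Trappc4 and Zwilch, their neighbours. For Rpl41 the strongest peak within reach had its summit 1368 to 1496 bp past the start, while the peak that covers the start itself was at percentiles of 79.1, 65.2, 81.2 and 85.8.

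**Figure D3:**
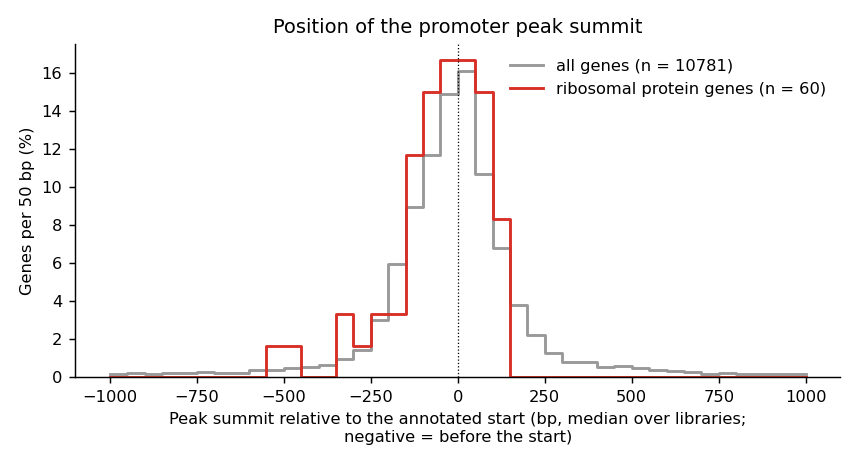
Share of genes (y axis, % per 50 bp) by the position of the promoter peak summit relative to the annotated start (x axis, bp, median over libraries, negative before the start), for 60 ribosomal protein genes and 10781 genes in all. Summits beyond 1000 bp are not drawn; both curves are highest beside the start.

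Within the set, percentiles spread widely. Rpl37, of the large subunit, led in every library, at percentiles of 99.5 and 99.6 (controls) and 99.8 and 99.7 (mutants). These are ranks 166 and 84 of 30239 and 22966 peaks, and ranks 55 and 93 of 29225 and 31832. Rps21, of the small subunit, followed with ranks 736, 1190, 800 and 724, and a mean percentile of 96.8. Rpl22l1 (96.8), Rpl15 (96.8) and Rps27a (96.7), the last encoding a fusion of ubiquitin and Rps27a, completed the 5 highest means. Over all 77 the median range was 12.6 points, against 9.33 over all genes. It was under 5 points for 19 members and over 20 points for 18. With control 2 left out the median range was 5.11 points for members and 5.24 for all genes.

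The 5 lowest means were all of the large subunit. Rpl8, a protein beside the peptidyl transferase centre, had a mean of 26.0, then Rpl6 (39.7), Rpl18 (40.5), Rpl4, which lines the exit tunnel (40.5), and Rpl23a (44.5). In Rpl6 the percentiles were 56.5 and 27.9 (controls) and 42.0 and 32.5 (mutants). In Rpl18 they were 52.6 and 11.6 (controls) and 52.7 and 45.1 (mutants), so that control 2 alone was low. The start of Rpl18 lies 69 bp from that of Sphk2, a sphingosine kinase gene, and 10 members had another gene's listed start within 1 kb. The mean percentile of those 10 had a median of 67.0, against 78.0 for the 67 others with a peak in all libraries. Neighbours without a listed start were not counted, so the 67 are not all lone promoters for certain. The start regions of Rpl37, Rps27a and Rpl4, among the 67, were nearest to Card6, Clhc1 and Zwilch. By subunit the median was 74.9 over 46 large subunit members and 79.2 over 31 small subunit members. No test was made of either split.

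Members with known roles in disease or stalk function were spread over the same range. Rpl5 and Rpl11, which with 5S rRNA bind the p53 regulator Mdm2, are Diamond-Blackfan genes. Rpl5 was at 74.4 and 57.8 (controls) and 76.1 and 77.3 (mutants). Rpl11 was at 65.4 and 64.2 against 65.5 and 60.6, with the genotypes overlapping. Rps19, the gene most often mutated in that anaemia, was at 95.1 and 90.3 against 95.4 and 94.8. Of 17 listed Diamond-Blackfan genes 16 were open in all libraries, with a median mean percentile of 71.4. Rplp0, the scaffold of the stalk that recruits elongation factors, was at 92.4 and 86.7 in the controls and 88.2 in both mutants. Rpsa was at 92.7 and 89.5 against 91.7 and 93.4. None of Rpl11, Rps19, Rplp0 and Rpsa had groups that stood apart, and in Rpl5 both mutants lay above both controls by 1.70 points. Rack1 and Fau, outside the symbol rule, were open in all libraries as well. The first, a signalling scaffold on the small subunit, had percentiles of 80.6 to 89.8, and Fau, a ubiquitin-like and Rps30 fusion, 34.4 to 48.0.

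Other genes of protein synthesis were also mostly open, with differing widths. The 78 mitochondrial ribosomal protein genes had a promoter peak in all libraries for 69 (88.5%), with a median mean percentile of 75.2 and a median mean width of 958 bp. For the 77 cytosolic members these medians were 76.8 and 1012 bp. Of 32 translation factor genes 32 were open in all libraries (median percentile 82.6, width 1288 bp), and of 27 ribosome biogenesis genes 25 (81.7, 1137 bp). Over all 11683 genes open in every library the medians were 78.2 and 1131 bp. Translation factor promoters therefore had the higher median width and cytosolic and mitochondrial ribosomal protein promoters the lower, in description only.

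Merged peaks that shared at least 1 bp gave 39843 regions, and 104 of them had a member as the nearest protein-coding gene within 100 kb of their midpoint. Regions held by all 4 libraries numbered 76 (73.1%), against 47.4% of all regions. Control-only regions, held by both controls and no mutant, numbered 0 of 104, and mutant-only regions 0 of 104. The backgrounds are 1.07% and 4.47% of all regions. They are lower for assigned regions within 1 kb of a start (0.385% and 1.15%) than for those farther away (1.46% and 5.66%). Only 32.7% of member regions lay away from a start, against 63.5% of all assigned regions. At a member's start lay 70 of the regions, and 67 of these (95.7%) were in all libraries, against 84.4% of all assigned regions at a start. The median width of member regions was 1072 bp, over a range from 358 to 1688 bp. The rule missed the start regions of 9 members whose promoter was open in all libraries, because a neighbour's gene body was nearer to the midpoint. These were Rpl7, Rps27a, Rpl37, Rps28, Rps18, Rps27, Rplp2, Rps25 and Rpl4, and Rpl37, the strongest member, went to Card6. Rpl36, which has no listed start, kept only a 684 bp region 422 bp from a gene end, which control 2 lacked. Its promoter peak, 904 to 922 bp wide and held by all libraries, was not in that region.

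Away from starts, members had few regions. There were 34 (0.405 per gene), against 1.02 per gene over all protein-coding genes, and 9 of the 34 (26.5%) were in all libraries, against 30.8% of all assigned regions away from a start. Regions assigned by distance are not shown to act on the gene. Rpl14, of the large subunit, had 3 such regions, at distances of 2.61, 7.90 and 28.7 kb. The first, at chr9:120576756-120577766, was at percentiles of 49.0 and 50.1 (controls) and 61.2 and 65.1 (mutants). A region 78.1 kb from Rps15a, at chr7:118025828-118026774, was at 44.3 and 40.8 (controls) and 15.8 and 15.0 (mutants). It had the widest separation in favour of the controls among member regions held by all libraries and was picked out after its values were seen. Rps12 had 4 regions between 30.7 and 98.0 kb away, each missing from at least 1 library, the farthest of which was the most distant of the set. The nearest region beyond the limit lay 103 kb from Rps15a.

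Between genotypes, the members' median percentile was on average higher in the mutants, a difference that turned to -0.674 points with control 2 left out. The highest single median was that of control 1, at 79.1. The median percentile averaged 75.2 in controls and 78.4 in mutants, a difference of 3.19 points (exact permutation p = 1). Much of this shift was shared by the series: gene by gene, the median difference was 3.46 points over members and 2.03 over all 11683 genes. The mutant mean was above the control mean for 77.9% of members and 74.6% of all genes. Both mutants lay above both controls for 31 of 77 members (40.3%), against 27.6% of all genes. Both controls lay above both mutants for 2 members (2.60%), against 5.79% of all genes. Control 2 was the lowest library for 75.3% of members and 64.2% of all genes. Its list is the shortest, and a given rank is a lower percentile in a shorter list. The part of list length in the low percentiles of control 2 was not tested. With 22959 top-ranked peaks taken from each library, 19 of 76 members were higher in both mutants (25%, against 15.6% of all genes) and 13 were higher in both controls (17.1%, against 18.8%). All 19 had been among the 31. At equal numbers the members' medians were 72.7 and 71.3 (controls) and 72.8 and 70.1 (mutants), and the difference was -0.560 points. Without control 2, mutants lay above control 1 for 33 of 78 members (42.3%, against 32.7%) and below it for 28 (35.9%, against 33.1%).

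**Figure D4:**
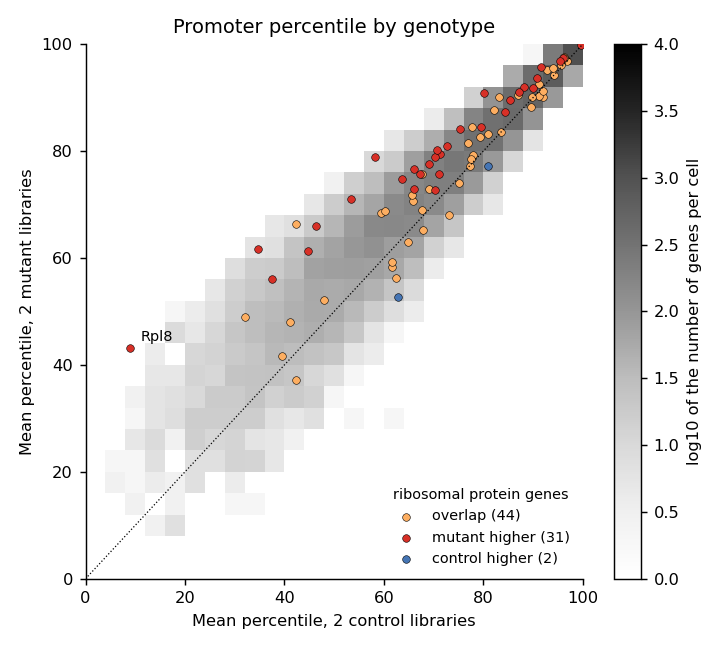
Mean percentile of the promoter peak in the 2 control libraries (x axis) and the 2 mutant libraries (y axis) for the 77 members open in every library, over the density of all genes in grey (log10 scale). Colours mark the 31 members higher in both mutants, the 2 higher in both controls and the 44 that overlapped; the dotted line marks equality and Rpl8 lies farthest above it.

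Rpl8 showed the largest difference of the set. Its peak at an end of the gene, in the region chr15:76903782-76904815, was at percentiles of 14 and 3.74 (controls) and 41.1 and 45.3 (mutants). The lowest mutant thus lay 27.0 points above the highest control, and the difference of the means was 34.3 points, against a median of 2.03 over all 11683 genes and 3.46 over members. Counting Rpl8 itself, 3 of those 11683 genes had a difference as large and 2 a gap as large. The authors' enrichment was 3.73 and 3.78 (controls) and 4.74 and 5.22 (mutants). The peak was weak throughout, at rank 25943 of 30239 in control 1 and 22077 of 22966 in control 2. At equal peak numbers it fell out of control 1 and was at 3.74 in control 2 and 25 and 24.2 in the mutants. With 2 libraries in each genotype and no read counts, no p below 0.33 can be reached for a single gene.

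Of the other members higher in both mutants, the largest differences of the means were at Rps4x, Rps7, Rpl32 and Rpl12. By the gap between the lowest mutant and the highest control, the order was another. Rpl32 (6.25 points), Rps7 (6.01), Rps6 (5.45) and Rps24 (5.42) then came after Rpl8, while Rps4x (1.11) and Rpl12 (0.337) were lower. Rps4x, the X-linked form of Rps4, was at 56.9 and 12.4 (controls) and 58.0 and 65.1 (mutants). Rps7, a Diamond-Blackfan gene, was at 72.8 and 43.8 against 78.9 and 78.8, and Rpl12, at the base of the stalk, at 54.7 and 20.2 against 55.0 and 57.0. In these 3 control 2 was low, and control 1 lay within 6.01 points of the nearer mutant. Rpl32 was at 51.2 and 41.6 against 57.4 and 74.5, with mutant 2 apart from the rest. These 4 kept the same order at equal peak numbers, but in Rpl12 control 1 (40.33) and mutant 2 (40.34) were then nearly equal. The 2 members higher in both controls were Rpl7l1, given above, and Rps25, which is needed for initiation at some viral RNA elements. Rps25 was at 82.0 and 79.7 (controls) and 76.9 and 77.6 (mutants), and both members kept that order at equal peak numbers.

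The libraries differed from each other by about as much within genotypes as between them. Over the 77 members the median absolute difference in percentile was 7.43 points between the controls and 2.69 points between the mutants. Between genotypes it was 2.30 and 3.93 points for control 1 and 6.64 and 8.55 points for control 2. The pairs with control 2 were thus the widest apart, whichever genotype they joined. Over all genes the same pairs gave 5.25 and 3.02 points within genotypes, 2.95 and 2.89 points for control 1 and 4.93 and 5.75 points for control 2.

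For the series as a whole, the lists held 22966 to 31832 peaks over 22.4 to 30.0 Mb, with control 2 the shortest, and read depth is unknown. Of 9 mesenchyme markers 7 had a promoter peak in all libraries, while Prrx1 had one in 3 libraries and Pdgfra in both controls (percentiles 10.9 and 29.7) and neither mutant. By contrast, 0 of 4 blood markers had one in any library. Krt14, Krt5 and Trp63 of 5 epithelial markers and Cdh5, Pecam1 and Tie1 of 4 endothelial markers had none. Epcam and Cdh1, of epithelium, had a mean percentile of 21.5 and 39.2, and Kdr, of endothelium, 48.4. Of 4 neural and glial markers 3 had a promoter peak in all libraries, Elavl4 (percentiles 83.7 to 90.2) and Tubb3 among them, and Sox10 in none. Of 3 muscle markers Myod1 had one in 2 libraries and the others in none. An open promoter does not show that a gene is expressed, and the part of other cell types in the member values was not tested.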

How the data were processed

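ATAC-seq peak lists of 2 control and 2 mutant libraries were used, grouped by the titles and genotypes in the labels. The build is mm10, per the submitters' processing notes. The sources used here do not give how reads were aligned, shifted for the transposase and called as peaks, or their depth. Each list has the 10 columns of the narrowPeak layout. The deposited score (column 5) ranked peaks within a library. It equals the whole part of 10 times the deposited −log10 p-value in all but 5 of the peaks (3 in control 2 and 2 in mutant 1). The deposited fold enrichment and −log10 q-value were used to describe or rank peaks in alternatives, and the deposited summit offset to place summits. Peak names carry numbers, and each list holds 23.8% to 27.8% of the numbers up to its highest; the selection behind this is not stated.

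Genes, and the 300-base promoter sequences (250 before and 50 from the start), came from RefSeq tables of GRCm38.p6. Percentiles were computed over each whole list and peaks on chromosomes 1 to 19 and X were used, with Python 3.11.15, pandas 2.3.3 and numpy 2.4.6. Genotypes were compared by an exact two-sided permutation test over the 4 libraries. Members are not replicates, so no test was made across them. Functions were tested on simulated peaks. The members, lists and tests were chosen with earlier results of these data known. Named were members without a promoter peak in every library, the 5 highest and 5 lowest mean percentiles, the 5 widest, up to 5 non-overlapping members per direction, Rpl5, Rpl11, Rps19, Rplp0, Rpsa, the paralogues and Fau and Rack1; others named were chosen after their values were seen. The pyrimidine run, TCT within 10 bases and TATAAA position were added later. Some genes under this rule are not reported here.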

Additional observations from a re-analysis of the deposited data

How the results depend on the processing

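The replicate block gave the same differences, 0.595 percentage points for promoter coverage (p = 1), 32 bp for width (p = 0.5, the smallest an exact sign-flip test over 2 pairs allows) and 3.19 points for percentile (p = 1), and it changed no call. Whether same-numbered libraries were prepared together is not stated. Their deviations correlated at -0.0396 over 11683 genes, which cannot decide this with 2 libraries in each genotype. Width kept its direction under each alternative run, from 15 to 49 bp when 1 library was left out. With 1 library left out, coverage ran from -0.595 (without control 2) to 1.79 and percentile from -0.674 (without control 2) to 7.06. At equal peak numbers the percentile difference was -0.560. The highest values over the alternatives run were 3.57 for coverage, in the upper 50% of each list, and 7.70 for percentile, ranked by enrichment. Control-only member regions numbered 1 at equal peak numbers and 0 to 7 with 1 library left out (7 without control 2), and mutant-only regions 2 to 5, where fewer libraries had to agree. Regions held by all libraries numbered 76 to 79 with 1 left out. Shares over all regions were not computed for these alternatives, so these region counts have no background. Members higher in both mutants numbered 19 of 76 at equal peak numbers (25%, against 15.6% of all genes). With 1 library left out they numbered from 33 of 78 without control 2 (42.3%, against 32.7%) to 63 of 77 without control 1. Members higher in both controls numbered 1 of 60 in the upper 50% of each list and 13 of 76 at equal peak numbers (17.1%, against 18.8% of all genes). They numbered 1 of 77 with peaks at either gene end and 4 of 77 ranked by enrichment. With 1 library left out they numbered 3 to 28 (6 without mutant 1, 8 without mutant 2). The 28 of 78 without control 2 made 35.9%, against 33.1%. For the other alternatives no share over all genes was computed, so their counts have no background. The cause of the shifts between alternatives was not tested. Read depth, which limits each call, is unknown.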
